A study of Rattus norvegicus with 98 samples.

Results

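Windows of the rat genome that carried acetylated histone H3 lysine 27 (H3K27ac) in the Raphe (raphe nuclei), LC (locus coeruleus) and Snt (nucleus of the solitary tract) and in few other brain regions were examined. The autosomes chr1 to chr20 of the Rn5 build were divided into windows of 1000 bp. A window was called occupied in a library when its peaks covered at least 500 bp of it. A member had to be occupied in at least 9 of the 12 libraries of these 3 regions, in at least 2 libraries of each, and in no more than 10% (8) of the 80 libraries from 21 other regions. Of 284178 windows occupied in at least 1 of these 92 libraries, 528 met the rule. The 2 HB (habenula) libraries were left out of it. Occupancy in the libraries that chose the members is therefore a description and was not tested.

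Male Long-Evans rats aged 2 months received fluoxetine in their drinking water for 6 weeks, at a daily dose of 18 mg/kg (FT), or plain water (Sham). Raphe, LC and Snt each had 2 FT and 2 Sham libraries, made by chromatin immunoprecipitation and sequencing from punches pooled over several animals, so no value belongs to a single animal. Punches hold every cell type of the area sampled, and a smaller number of cells carrying the mark cannot be told apart from less of the mark in each cell. The peak lists of the 12 libraries held 34038 to 52383 peaks, and those of all 92 held 19378 to 54505. Sequencing depth is unknown, since the lists hold no read counts. Whether the labelled nuclei carried the genes that define them could not be checked, since no Rn5 annotation was used here.

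H3K27ac marks active promoters and enhancers, and enhancer acetylation differs more between cell types and brain areas than promoter acetylation does. The raphe holds the serotonergic neurons whose reuptake transporter is the target of fluoxetine, the locus coeruleus is the main noradrenergic nucleus of the brain, and the nucleus of the solitary tract receives visceral sensory input in the medulla. The periaqueductal grey (PAG), a midbrain area, lies rostral to the locus coeruleus, and the dorsal raphe is embedded in its ventral part. The ventral tegmental area (VTA) is a dopaminergic area of the midbrain.

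Members made up a small share of the acetylated genome of these nuclei. Some 52360 windows met the hindbrain criteria, that is, the demand on the 12 libraries without the limit on other regions, and 1.01% of these were members. In contrast, 83.4% of them were occupied in at least 50% of the other libraries. Each library of Raphe, LC or Snt occupied 54.9% to 96.2% of the members (83.3% ± 13.4, SD, n = 12 libraries). All 12 libraries occupied 43 members, 11 libraries 101, 10 libraries 196 and 9 libraries 188. The 72 libraries of the 19 regions other than PAG and VTA occupied 3.28% ± 3.69 of members on average (SD, n = 72 libraries). The lateral hypothalamus (LH) had the highest share among these regions, 12.6% ± 6.10 (SD, n = 4 libraries), and its highest library, FT replicate 1, held 18.4%.

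The windows were confined to the hindbrain only in part, because the midbrain shared many of them. The 4 PAG libraries occupied 49.5% ± 3.85 of the members (SD, n = 4) and the 4 VTA libraries 34.1% ± 15.2 (SD, n = 4). VTA ranged from 15.0% in Sham replicate 2 to 50% in Sham replicate 1. Together these 8 libraries gave 1766 of the 3014 cases in which a library outside the 3 nuclei occupied a member, or 58.6%. A limit of 8 libraries let a window pass even when every PAG and VTA library occupied it. Only 46 members were occupied in 0 PAG and 0 VTA libraries, 103 were occupied in 0 of the 72 libraries elsewhere, and 13 in 0 of all 80 other libraries. No member was occupied in all 12 libraries of the nuclei and in 0 others.

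**Figure D1:**
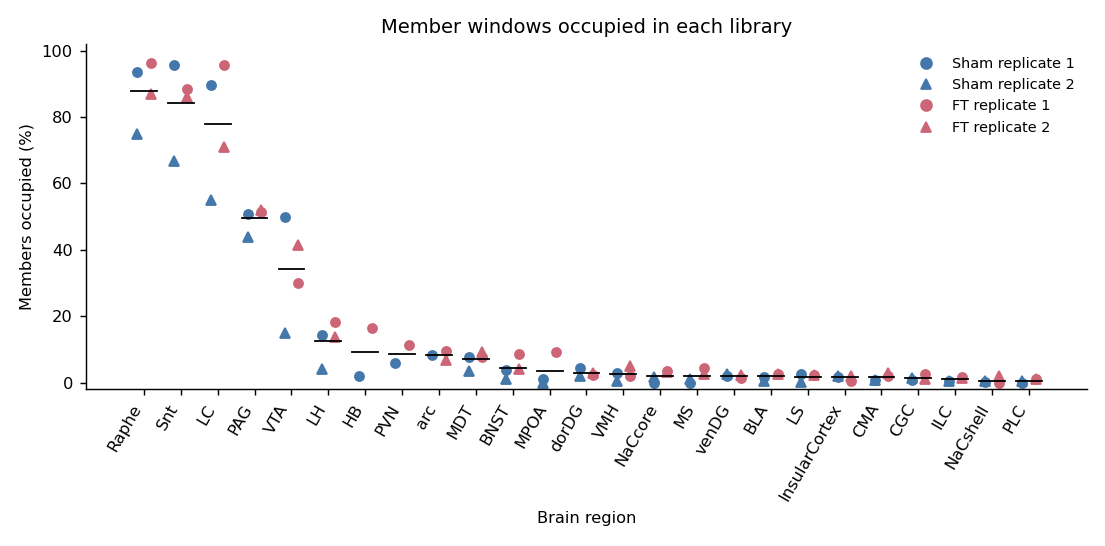
Share of the 528 members occupied in each library (y axis, percent) by brain region (x axis), with circles for replicate 1, triangles for replicate 2, colours for treatment and a line at the mean of the region. Raphe, Snt and LC stand highest by construction of the rule; PAG at 49.5% and VTA at 34.1% follow, and every other region lies at 12.6% or lower on average.

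Members had weaker peaks than the windows meeting the hindbrain criteria as a whole. The −log10 p-value of the peak covering a window was pooled over all pairs of a window and a library of the nuclei that occupied it. Its median over these pairs was 13.7 for members and 39.8 for all 52360 windows. The median rank percentile of the peak in its list, pooled in the same way, was 48.1 for members and 73.1 for all such windows. A rank of 100 is the strongest peak of the library. The 188 members with 9 occupied libraries of the nuclei had a median −log10 p of 10.9, and the 132 windows with 8 that met all other criteria had 9.19. The 106 members at the limit of 8 other libraries had a median −log10 p of 15.4, and the 97 windows with 9 had 13.4.

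Occupancy in PAG split the members into 2 kinds, with few in between. All 4 PAG libraries occupied 222 members, 0 PAG libraries occupied 228, and 1 to 3 libraries occupied 78. The PAG libraries occupied 54.3% to 75.3% of all windows meeting the hindbrain criteria, and the VTA libraries 78.5% to 96.8%. Absence from a PAG library was thus not particular to members. The split of all such windows by the number of PAG libraries is not given here. This split was made after the values were seen. A library that did not occupy a window counts as rank 0. The split fixed PAG as occupied in all 4 libraries or in 0, while the rule let Raphe, LC and Snt miss libraries. The order of regions given below for both kinds follows in part from the rule and the split, and is a description. Among the 222 members shared with PAG, the peak was strongest in PAG itself: PAG had the highest median rank of the 5 brainstem regions in 206 of them, LC in 11, Raphe in 3 and Snt in 2. Their median rank was 83.9 to 90.9 in the 4 PAG libraries. Snt libraries held these windows as low peaks or not at all, with median ranks of 32.9 and 0 in Sham and 21.5 and 18.3 in FT.

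The 228 members absent from PAG had a different order. Snt had the highest median rank in 160 of them, Raphe in 38, LC in 20 and VTA in 10. Median ranks over the 228 windows in Snt were 48.5 and 44.1 in the Sham libraries and 49.7 and 49.2 in the FT libraries, and 199 of the windows were occupied in all 4 Snt libraries. In LC the ranks were 24.2 and 0 in Sham and 35.4 and 6.04 in FT, and only 20 of the windows were occupied in all 4 LC libraries. Members absent from PAG were more often seen elsewhere, with a median of 3 of the 72 other libraries against 1 for the members shared with PAG, for which the limit of the rule left room for only 4 other libraries.

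**Figure D2:**
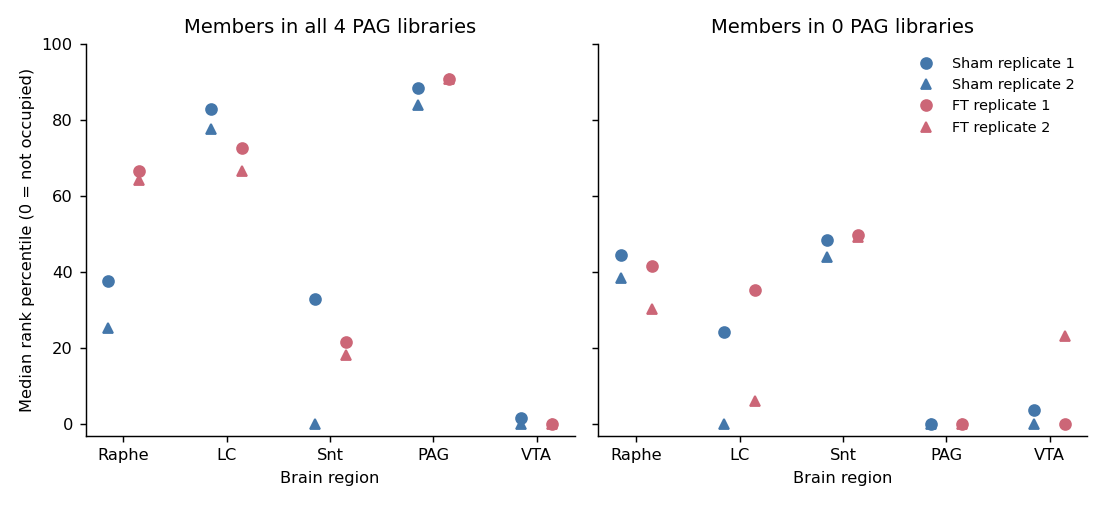
Median rank percentile of the peaks over members (y axis; a window that a library did not occupy counts as 0) for each library of 5 brainstem regions (x axis), for the 222 members in all 4 PAG libraries (left) and the 228 in 0 PAG libraries (right). On the left PAG and LC stand highest and the FT libraries of Raphe (64.3 and 66.6) lie above its Sham libraries (25.4 and 37.7); on the right Snt and Raphe lead.

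Single loci show both kinds. The largest groups of nearby members (windows no more than 50 kb apart) lay on chr14 and chr4. At chr14:102917001-102925000, 5 member windows were occupied in 2 to 4 PAG libraries, 0 VTA libraries and 0 to 2 libraries elsewhere. In the window with the highest median over the nuclei, chr14:102917001-102918000, the −log10 p-value was 9.70 and 15.8 in the Sham Raphe libraries and 30.8 and 40.3 in the FT Raphe libraries. The LC libraries had 59.2 and 26.8 in Sham and 62.2 and 38.1 in FT, and Snt had 24.03 and no peak in Sham and 15.4 and 16.1 in FT. PAG had 148 and 78.9 in Sham and reached the upper limit of the lists, 200, in both FT libraries. The window was thus highest in PAG. LC lay above Raphe in Sham, while the FT libraries of LC and Raphe overlapped, and the FT Raphe libraries lay above the Sham Raphe libraries.

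A neighbouring group, chr14:102821001-102824000, held 3 adjoining members, one of the 2 longest runs. In its first window, chr14:102821001-102822000, all 4 PAG libraries stood at 200. The Raphe values there were 32.2 and 29.1 in Sham against 154 and 111 in FT. LC had 176 and 61.2 in Sham and 187 and 67.3 in FT, so the LC groups overlapped. Snt had 25.3 and 12.8 in Sham, 23.2 in FT replicate 1 and no occupying peak in FT replicate 2.

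At chr4:434001-499000, 5 members spread over 65 kb were occupied in 3 or 4 PAG libraries, and the nearest broadly occupied window, one found in at least 50% of the other libraries, lay 89 to 110 kb away. In chr4:477001-478000 the Sham Raphe values were 14.6 and 8.60 and the FT Raphe values 78.9 and 65.2. LC had 163 and 81.3 in Sham and 149 and 53.2 in FT, and PAG stood at 200 in 3 libraries and at 166 in Sham replicate 2. Snt had weak peaks of 11.3 and 6.01 in the replicate 1 libraries only. At chr1:41966001-42022000, 4 members occupied in all 4 PAG libraries had the same order, with median ranks of 89.9 in PAG, 78.3 in LC, 43.8 in Raphe and 10.2 in Snt.

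The opposite order was seen at 2 groups of 3 members with no PAG or VTA library. In chr10:84005001-84006000, the window with the highest median of chr10:83993001-84006000, Snt had 103 and 59.5 in Sham and 93.7 and 68.5 in FT. Raphe had 19.9 and 17.2 in Sham and 26.4 and 18.8 in FT, and LC had 12.7 and no peak in Sham and 23.4 and 9.85 in FT. In chr3:68137001-68138000, the window with the highest median of chr3:68137001-68152000, Snt had 94.9 and 74.6 in Sham and 59.8 and 48.3 in FT, Raphe 19.8 to 31.5 in all 4 libraries, and LC 7.42 and 12.4 in its replicate 1 libraries only. Broadly occupied windows were 236 to 248 kb and 65 to 79 kb away from these groups. Both loci were strongest in Snt, the most caudal of the nuclei, and in Raphe and LC the FT and Sham values overlapped at chr3:68137001-68138000.

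Both kinds met at 2 further groups. At chr4:191149001-191186000 and at chr3:14118001-14172000, the 3 members of each were occupied in 0 to 4 PAG libraries and 1 to 3 VTA libraries. The group at chr1:141317001-141319000 was occupied in 0 PAG but 3 VTA libraries, with −log10 p-values of 12.8 to 14.1 in VTA and 9.23 to 16.7 in the Raphe, LC and Snt libraries that occupied chr1:141317001-141318000. At chr2:205244001-205246000, 2 adjoining windows lay under the same peak in all 12 libraries of the nuclei. There the −log10 p-value was 17.0 to 39.0 in Raphe, 17.1 to 33.9 in Snt, 44.4 to 188 in LC and 86.1 to 200 in PAG, and the nearest broadly occupied window was 320 kb away. Of the longest runs of adjoining members, the others were chr14:102922001-102925000, inside the first group above, and chr1:41975001-41977000, with median ranks of 90.5 in PAG, 78.8 in LC, 46.9 in Raphe and 10.2 in Snt.

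The 13 members occupied in 0 other libraries were looked at after their values were seen. They included 2 windows each of the chr3 and chr10 groups with neither PAG nor VTA peaks, and 2 windows at chr4:146795001-146804000. In chr4:146795001-146796000 Snt had −log10 p-values of 61.2 and 54.7 in Sham and 46.1 and 37.5 in FT. Raphe had 21.7 and 6.79 in Sham and 22.3 and 9.71 in FT, and LC had 6.26 and 6.00 in Sham and 8.34 and no peak in FT. Snt lay above Raphe and Raphe above LC within each treatment and replicate. At chr17:13588001-13589000, 238 kb from a broadly occupied window, Snt had 21.5 to 38.8, LC 7.99 to 26.4 and Raphe 8.05 to 15.8 with no peak in Sham replicate 2, so every Snt library lay above every Raphe library while LC overlapped both. The weakest of the 13, chr10:65571001-65572000, had values of 4.46 to 7.39 in the 9 libraries that occupied it, near the lowest value in the lists, 4.

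Runs of adjoining members were short: 491 runs of adjoining members were found, of which 456 were a single window, 33 held 2 windows and 2 held 3. The difference between regions was largest at the members and in the windows next to them. Occupancy of the windows next to a member was 37.0% and 35.5% in the 12 libraries of the nuclei and 10.6% and 10.9% in the 72 libraries elsewhere. At a distance of 3 kb it was 3.84% and 3.46% against 4.58% and 4.43%. From 4 to 10 kb the libraries of the nuclei stayed above those elsewhere on both sides. At 5 kb, for instance, it was 8.89% and 11.1% against 4.98% and 6.93%. The median distance to a broadly occupied window was 12 kb for members, and 100 members (18.9%) adjoined one. Windows chosen by a rule of the same form had medians of 30.5 kb for neocortex (n = 1562), 29 kb for dentate gyrus (n = 3485), 15 kb for midbrain (n = 64) and 11.5 kb for hypothalamus with preoptic area (n = 18). These sets rest on other numbers of libraries and regions, and no test was made between them. Members lay on all 20 autosomes, from 5.80 per 1000 windows meeting the hindbrain criteria on chr11 to 15.2 per 1000 on chr14.

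**Figure D3:**
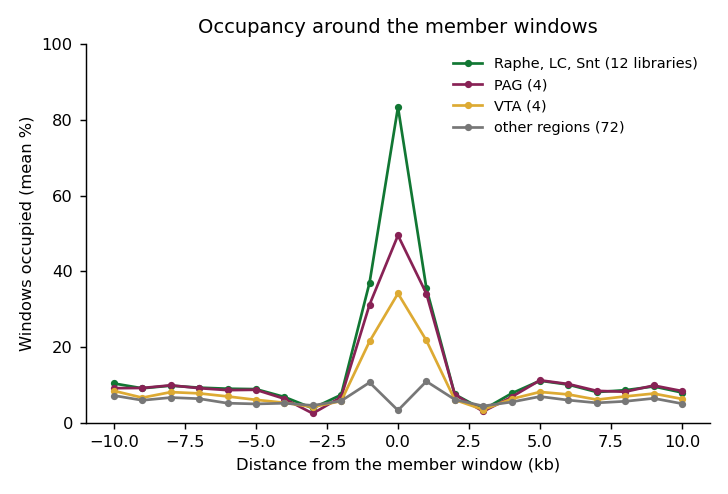
Mean share of windows occupied (y axis, percent) at distances of up to 10 kb on either side of the 528 members (x axis, kb) in the libraries of Raphe, LC and Snt, of PAG, of VTA and of the other regions. The lines differ most at the member (83.3% against 3.28% in the other regions) and next to it, and from 2 kb on, all lines lie at 2.46% to 11.2%.

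Windows chosen by a rule of the same form were then measured in libraries that had no part in choosing them. The rule was applied to one set of libraries with its shares kept (75% of the libraries of the nuclei, at least 1 of each, and no more than 10% of the others), and occupancy was read in the remaining set. Windows chosen in replicate 1 (n = 1196) were occupied in replicate 2 at 56.2% ± 10.1 in Raphe, LC and Snt (SD, n = 3 regions) and at 6.63% ± 10.4 in the other regions (SD, n = 20). The difference was 49.6 percentage points (one-sided exact permutation test over regions, p = 0.000565). Windows chosen in replicate 2 (n = 324) were occupied in replicate 1 at 85.3% ± 5.67 and 10.7% ± 14.4 (SD, n = 3 and 21 regions; exact permutation test, one-sided, p = 0.000494). Choosing in Sham and reading in FT gave 77.7% ± 8.47 against 16.3% ± 13.9, and choosing in FT and reading in Sham gave 63.4% ± 6.68 against 6.58% ± 11.2 (SD, n = 3 and 21 regions; exact permutation test, one-sided, p = 0.000494 in each). These are the smallest p-values the design allows. The windows had been chosen for occupancy in the same 3 regions. The tests therefore show only that this occupancy repeated in other libraries of those regions. Of the windows chosen, 406 of 1196, 189 of 324, 336 of 1045 and 361 of 723 in this order were members, so most were not members in 3 of the 4 comparisons. The regions were punched from the same pools of animals, so they are not independent units, and these p-values describe the regions of these pools. Of the other regions, PAG came nearest in 3 of these 4 comparisons (43.9% to 51.4%) and VTA in the remaining one (51.7%). The lowest of the 3 nuclei stood above the highest other region in each, by 45.0% to 43.9% in the narrowest case. On equal-size lists VTA stood above the lowest nucleus in 2 of the 4, at 47.0% against 45.4% (replicate 1 to replicate 2) and at 59.0% against 51.0% (FT to Sham).

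The HB libraries, which the rule did not use, differed from each other. The FT library occupied 87 members (16.5%) and the Sham library 11 (2.08%), with a single library per treatment and no test. The Sham HB library also occupied only 0.317% of all windows meeting the hindbrain criteria, where the FT library occupied 91.7%, so its low share was not particular to the members.

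The share of members occupied was first set side by side for FT and Sham libraries over all 3 nuclei. Each Raphe library occupied 93.6% and 74.8% of members in Sham (replicates 1 and 2) and 96.2% and 86.9% in FT. LC had 89.8% and 54.9% in Sham and 95.6% and 71.0% in FT, and Snt had 95.6% and 66.9% in Sham and 88.4% and 86.0% in FT. The groups overlapped in each region, and the 6 replicate 1 libraries (88.4% to 96.2%) all lay above the 6 replicate 2 libraries (54.9% to 86.9%). The FT mean was 87.4% ± 9.13 and the Sham mean 79.3% ± 16.4 (SD, n = 6 libraries each). The difference was 8.11 percentage points, smaller than the SD of either group, and was not tested because these libraries chose the members. It was 0.442 points between the replicate 1 libraries and 15.8 points between the replicate 2 libraries, where the Sham lists were shortest, at a mean of 40558 peaks. It was 21.8 points without Sham replicate 1 and -5.62 without Sham replicate 2. Over all 52360 windows meeting the hindbrain criteria FT and Sham libraries occupied 96.7% and 92.6%.

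Over all 528 members, the FT minus Sham difference in median rank was 14.8 percentile points in Raphe and 8.65 in LC, in the same direction. The members shared with PAG and those absent from it differed in this. A window that a library did not occupy has rank 0, so the ranks hold the occupancy that the rule used and are given as a description, for a split made after the values were seen. In Raphe, the median rank over these 222 members was 37.7 and 25.4 in Sham and 66.6 and 64.3 in FT. In LC it was 83.0 and 77.6 in Sham and 72.6 and 66.7 in FT. The FT libraries thus lay above both Sham libraries in Raphe and below both in LC. The FT minus Sham difference was 33.9 percentile points in Raphe and -10.7 in LC, a gap of 44.5. The Sham Raphe libraries occupied 92.3% and 65.3% of these windows and the FT Raphe libraries 100% and 98.2%. In Snt the median ranks overlapped. For the 228 members absent from PAG the differences were -5.50 in Raphe and 8.63 in LC.

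Counted window by window, both FT ranks lay above both Sham ranks in Raphe for 222 of 528 members (42.0%), where 28.0% of all windows meeting the hindbrain criteria did so. Of the members shared with PAG it was 185 of 222 (83.3%), and of the members absent from PAG 17 of 228 (7.46%). The reverse, both Sham ranks above both FT ranks, held in Raphe for 73 members (13.8%) against 17.9% of all windows. In LC the Sham ranks were higher for 140 members (26.5%) against 8.74% of all windows, and 127 of these 140 were members shared with PAG. FT ranks were higher in LC for 72 members (13.6%) against 28.4%. In Snt the FT ranks were higher for 134 members (25.4%) against 19.6% of all windows, and the Sham ranks for 59 (11.2%) against 20.9%. The shares of members shared with PAG lay above the background for FT in Raphe and for Sham in LC, and below it in both directions in Snt, with no test since the ranks hold what the rule used.

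**Figure D4:**
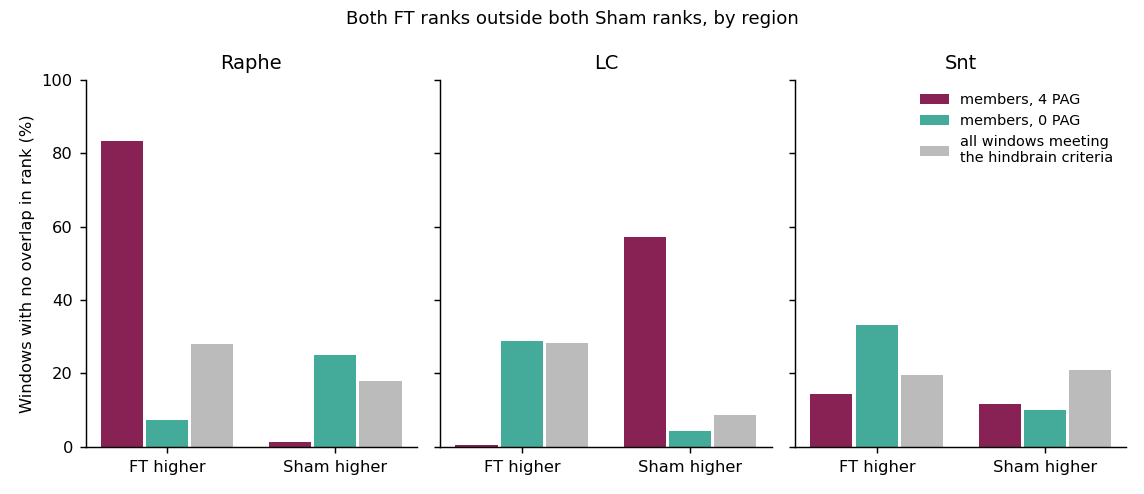
Share of windows in which the ranks of both FT libraries lay outside those of both Sham libraries (y axis, percent), by direction (x axis) and region (panels), for members in all 4 PAG libraries, members in 0 PAG libraries and all windows meeting the hindbrain criteria. The bars at 83.3% (Raphe, FT higher) and 57.2% (LC, Sham higher) belong to members shared with PAG, against 28.0% and 8.74% of all windows. For the 8357 PAG windows outside the members, described below and not drawn, these shares were 38.9% and 37.4%.

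PAG windows beyond the members had the same order of FT and Sham in Raphe, and in LC within each replicate number. Outside the members, 8357 windows were occupied in all 4 PAG libraries and in no more than 10% of the libraries outside the 3 nuclei and PAG. The Sham Raphe libraries occupied 11.7% and 7.89% of them and the FT Raphe libraries 58.6% and 47.8%. The Sham LC libraries occupied 86.7% and 58.0% and the FT LC libraries 67.2% and 45.5%, so that FT lay below Sham within each replicate number but the groups overlapped. The Snt libraries occupied 1.53% to 8.28%. In Raphe both FT ranks lay above both Sham ranks for 38.9% of these 8357 windows. In LC both Sham ranks lay above both FT ranks for 37.4%. On lists cut to the same length of 19378 peaks, the Jaccard index (shared windows as a share of those occupied in either library) of Raphe with PAG was 0.358 for Sham and 0.454 for FT Raphe libraries, and that of LC with PAG 0.593 for Sham and 0.504 for FT LC libraries (means of 8 pairs each). In Raphe the share of PAG-type windows was higher in both FT libraries, as the member ranks were. In LC the shares of FT and Sham overlapped, while the member ranks did not. The part of this share in the rank differences was not tested. How much neighbouring tissue a punch held and how strongly the cells of the nucleus were acetylated cannot be told apart in these pooled punches.

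Peak height was compared in one linear model (limma) over the 32170 windows occupied in all 12 libraries, which included 43 of the 528 members in 40 runs; 28 of these were in all 4 PAG libraries, 8 in 0 and 7 in 1 to 3. Height was log2 of the highest filter score of the peak, quantile normalised. Adjoining members in these runs lay under the same peak and had identical heights, and each is counted as a member in the counts below. With region in the model, 0 windows and 0 members passed an adjusted p of 0.05 for FT against Sham, higher or lower (0 and 0 percent of all windows in limma, 1528 windows and 2 members at an unadjusted p under 0.05). The members with the lowest p were chr18:8184001-8185000 (log2 difference -0.25 ± 0.10, SE) and chr9:64216001-64217000 (-0.23 ± 0.10), and, in the other direction, chr20:10649001-10650000 (0.24 ± 0.12) and chr14:102822001-102823000 (0.27 ± 0.15). The limma adjusted p was 0.990 for each.

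Between nuclei the heights differed widely. Raphe peaks were lower than LC peaks in 27 of the 43 members by limma, against 20.8% of all windows, and higher in 4, against 23.9%. Of the 28 members shared with PAG, 23 were lower and 0 higher. At chr2:205244001-205245000, the height on the log2 scale was 6.78, 6.96, 7.05 and 7.38 in the Raphe libraries and 8.86, 8.74, 7.92 and 8.04 in the LC libraries (Sham replicates 1 and 2, then FT). All LC libraries lay above all Raphe libraries, with a difference of -1.35 ± 0.18 (SE; limma adjusted p = 0.000417). At chr14:103054001-103055000 the difference was -1.08 ± 0.17 and at chr10:104538001-104539000 it was -1.26 ± 0.22 (limma adjusted p = 0.000579 and 0.000793). The members higher in Raphe included chr20:10649001-10650000 (0.62 ± 0.15), chr15:21843001-21844000 (0.44 ± 0.12) and chr12:49690001-49691000 (0.53 ± 0.15), all with 0 PAG libraries (limma adjusted p = 0.00463, 0.0107 and 0.0124). All 3 lost their call without Sham replicate 1, and the last 2 also without Sham replicate 2.

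Snt peaks were lower than LC peaks in 26 of the 43 members, against 29.4% of all windows in limma, and higher in 5, against 29.8%. The strongest were again windows shared with PAG. At chr8:56474001-56475000 the Snt heights were 6.26, 5.92, 5.88 and 5.65 and the LC heights 8.97, 8.83, 8.02 and 8.11 (Sham replicates 1 and 2, then FT), without overlap and with a difference of -2.56 ± 0.27 (SE; limma adjusted p = 1.54e-05). It was -2.13 ± 0.22 at chr10:104538001-104539000 and -1.77 ± 0.18 at chr14:102822001-102823000. In the other direction, chr10:84004001-84005000 had Snt heights of 7.88, 7.74, 7.71 and 7.63 and LC heights of 6.66, 7.03, 6.96 and 6.75, again without overlap, and a difference of 0.89 ± 0.10 (limma adjusted p = 2.46e-05). At chr20:10649001-10650000 the difference was 1.11 ± 0.15, and at chr12:49690001-49691000 it was 0.75 ± 0.15.

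Few height differences between Raphe and Snt passed the threshold. Of the 43 members, 1 was lower in Raphe and 0 higher by limma, against 0.00622% and 0 percent of all windows, and 16 had an unadjusted p under 0.05. Differences that were not called ran up to 1.17 ± 0.27 (SE) at chr8:56474001-56475000 (limma adjusted p = 0.127). With median scaling 4 members were called as higher and 2 as lower. Neither these counts nor the count at an unadjusted p is set against all windows. The called member was chr10:84004001-84005000, in the locus with neither PAG nor VTA peaks, at 6.79, 6.97, 6.79 and 6.82 in Raphe and the Snt heights given above (-0.89 ± 0.10, limma adjusted p = 0.0152). It was not called when any pool was left out, nor with the replicate number as a block (limma adjusted p = 0.0509).

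A further fit with separate treatment terms, chosen after the values were seen, compared the FT minus Sham difference of Raphe with that of LC. The gap was positive and called in 21 of the 43 members, against 6.99% of all windows in limma, and all 21 were shared with PAG. With tag count per kb as the measure, 0 members were called for the gap or within a nucleus (limma; 9 windows of all 32170 were called as positive and 3 as negative for the gap). By filter score the gap was negative and called in 1, against 6.40%, and this one was absent from PAG. Within Raphe, 8 members were higher in FT (2.10% of all windows) and 0 lower (0.581%). Within LC, 8 were lower in FT (2.20%) and 0 higher (2.38%), and all 16 of these calls fell on members shared with PAG. In Snt 0 members and 0 windows were called (0 percent; 3 members and 625 windows at an unadjusted p under 0.05). These calls rest on 2 libraries per group. The counts that follow, with a pool left out or another scaling, are not set against all windows and show only how the calls moved. For the gap, 12 members were called as positive without Sham replicate 1, 14 without Sham replicate 2, 2 without FT replicate 1 and 0 without FT replicate 2. Within a nucleus, 0 or 1 member was called in Raphe and 0 to 3 in LC with any pool left out, and with median scaling 0 were called in LC and 11 in Raphe.

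At chr13:56524001-56525000 the heights in Raphe were 6.32 and 6.23 in Sham and 7.49 and 7.68 in FT, and in LC 8.09 and 8.15 in Sham and 7.45 and 7.43 in FT. The groups did not overlap in either nucleus, and the gap was 2.00 ± 0.18 (SE, log2; limma adjusted p = 0.00115). At chr8:56474001-56475000 Raphe had 6.60 and 6.66 in Sham and 7.78 and 7.33 in FT, and the gap was 1.76 ± 0.23. At chr8:23424001-23425000 Raphe had 6.30 and 6.38 in Sham and 6.87 and 7.03 in FT, LC had 7.71 and 7.82 in Sham and 6.75 and 6.13 in FT, and the gap was 1.94 ± 0.27 (limma adjusted p = 0.00255 and 0.00329). The single called member in the other direction was chr15:21843001-21844000, with a gap of -0.64 ± 0.17 (limma adjusted p = 0.0297).

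**Figure D5:**
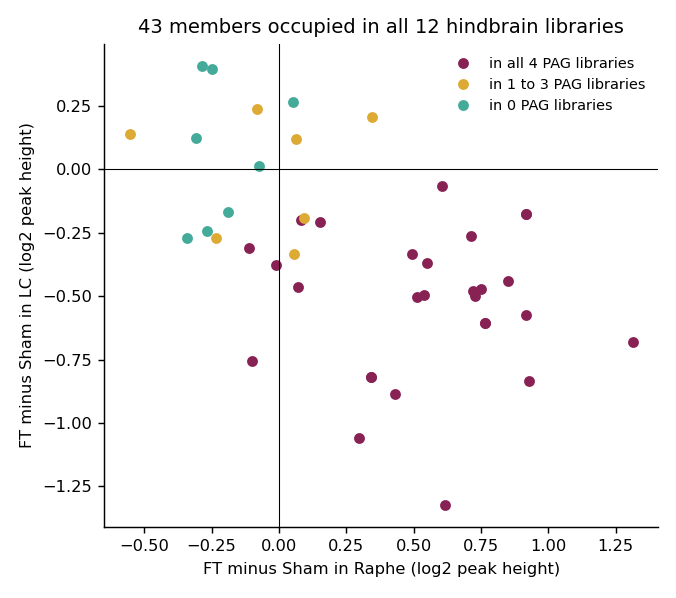
FT minus Sham difference in log2 peak height in Raphe (x axis) and in LC (y axis) for the 43 members occupied in all 12 libraries, coloured by the number of PAG libraries that occupied them. All 28 members shared with PAG lie below 0 on the y axis and 25 of them above 0 on the x axis. These counts are not set against all windows, and adjoining members under the same peak share a point.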

How the data were processed

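Punches of rat brain were profiled by H3K27ac ChIP-seq. The authors mapped paired-end reads to Rn5 (BWA is named in the submitters' processing notes, version not given) and called peaks with DFilter in each library. The deposited −log10 p-value of each peak ran from 4 to 200. The deposited scores are the highest filter score of a peak and a normalised tag count rounded to whole numbers. The lists carry no raw counts. Peak starts were read as counting from 0, and positions are given counting from 1. The members, lists and tests were chosen with earlier results of these data known.

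Each window took the peak covering most of it. Ranks are percentiles of the −log10 p within a list. The design named the tag count per kb as the measure for limma. As this count did not grow with peak width, log2 of the filter score was used instead and the tag count per kb became an alternative. Windows occupied in all 12 libraries were quantile normalised and fitted with region and treatment (limma 3.58.1, R 4.3.3), with Benjamini-Hochberg adjustment over all 32170 windows and a threshold of 0.05. Held-out occupancy was compared over regions with exact permutation tests (Python 3.11.15, numpy 2.4.6). The membership rule, the permutation of treatment labels and the limma fit were tested on simulated data. The planned permutation test of member occupancy between FT and Sham is not reported, as the same libraries chose the members. Loci named were the 10 groups with most members, the 5 longest runs, and per contrast the 3 called members with the lowest p in each direction (2 where none was called), adjoining windows under the same peak counted once.

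FT and Sham libraries of a replicate number went through the protocol side by side in the authors' account, so the numbers pair them. Their replicate differences correlated over windows at 0.0787 in Raphe, 0.245 in LC and 0.152 in Snt. Whether the p-values reach beyond these pools of animals was not tested. Alternatives were other limits of the rule, coverage of 250, 750 and 1000 bp, peaks with −log10 p of at least 6, equal-size lists, shifted windows, other scalings, a pseudocount of 10, the replicate block and each pool left out. Genes, sequences and motifs were not analysed here, as no Rn5 genome or annotation was used, and the 4 input libraries entered no comparison.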

Additional observations from a re-analysis of the deposited data

Results flagged for a closer look

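The FT minus Sham difference in median rank of the 222 members shared with PAG went in opposite directions in Raphe and LC, with a gap of 44.5 percentile points. Every FT library lay above both Sham libraries in Raphe and below both in LC. The difference was not tested, since the ranks hold the occupancy that chose the members, and over all 528 members both differences were positive (14.8 and 8.65). The share of PAG-type windows outside the members moved the same way in Raphe, and its part was not tested.

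Of 32 groups of 4 to 6 libraries examined, 4 held a value set apart from the others. About 1 in 20 groups is expected by chance for normally distributed values, which median ranks with a floor at 0 are not. Sham PAG replicate 2 occupied 43.8% of the members against 50.8% to 51.9% in the other PAG libraries. It also had the shortest PAG list, 30192 peaks against 39372 to 42639. Sham LS replicate 2 (lateral septum) occupied 0.189% against 2.27% to 2.46%, and its list was the shortest of LS, 26223 peaks against 43341 to 46482. The median rank of the members shared with PAG was 1.69 in Sham VTA replicate 1 and 0 in the other VTA libraries. The median rank of the members absent from PAG was 23.3 in FT VTA replicate 2 against 0 to 3.73 in the others.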

How the results depend on the processing

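The number of members depended on the rule, and so did which windows were members. The number was 340 with 10 or more and 43 with all 12 libraries of the nuclei. Limits of 0%, 5% and 20% of other libraries gave 13, 123 and 1762. Coverage of 250, 750 and 1000 bp (the whole window) gave 598, 416 and 266 windows, of which 260, 119 and 37 were among the 528. Peaks with −log10 p of at least 6 gave 449 windows, 276 of them among the 528. Equal-size lists gave 212, of which 66 were among the 528. Leaving out 1 pool of animals gave 467 to 944 windows, the highest numbers being 898 and 944 when Sham replicate 2 or FT replicate 2 was dropped. After seeing the data, PAG and VTA were left out of the other libraries, which gave 927 windows, and members were limited to 1 PAG or VTA library, which left 86. The 3 nuclei stood above the other regions in the held-out libraries on average with 250 and 750 bp covered, on equal-size lists and without PAG and VTA. The FT minus Sham difference in occupancy was 21.8 points without Sham replicate 1 and reversed to -5.62 without Sham replicate 2, its range over the pools left out. The Raphe to LC gap in rank was 20.5 points as a share of windows occupied and 41.1 to 48.0 with a pool left out. On equal-size lists it was 76.1, where the Raphe difference rose from 33.9 to 65.5 and the LC difference stayed at -10.7. A window that the cut removed from a list counts as rank 0. The larger gap can reflect that floor and is not read as a stronger result.

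In limma, tag count per kb gave 2 members higher and 9 lower for Raphe against LC and 17 lower for Snt against LC. It gave 0 for Raphe against Snt and 0 in both directions for the Raphe to LC treatment gap. Where no share of all windows is given here, a count shows only how the calls moved with the setting. Windows occupied in 9 or more libraries, which admit all 528 members (478 for the gap) with missing libraries dropped, gave 49 higher and 178 lower for Raphe against LC (23.1% and 12.3% of all windows), 85 and 206 for Snt against LC (30.6% and 20.9%), 2 lower for Raphe against Snt (0.00955%) and 112 higher and 3 lower for the gap (3.55% and 2.60%). Median scaling gave 4 higher and 2 lower for Raphe against Snt and 0 lower for the gap, and the replicate block 0 lower for Raphe against Snt; it changed no other call count by over 1.5 times. With a pool left out, where a lone library is taken to vary like the others, the ranges were 0 to 4 higher and 19 to 27 lower for Raphe against LC, 5 to 5 higher and 24 to 27 lower for Snt against LC, 0 to 0 for Raphe against Snt, and 0 to 14 higher and 0 to 0 lower for the gap. The FT against Sham differences of chr18:8184001-8185000 and chr9:64216001-64217000 reversed to 0.037 and 0.098 on the log2 scale with tag count per kb. The causes were not tested. Depth is unknown, so a missing peak is not the absence of the mark, and replicate 2 libraries had shorter lists.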
